A study of Homo sapiens with 6 samples.

Results

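The genes described here are 37 interferon-stimulated and RNA-sensing genes, taken by symbol from a count table of 35615 gene symbols in K562 cells, and all 37 symbols were found. K562 cells come from a patient with chronic myeloid leukaemia, resemble red cell precursors and depend on BCR-ABL1, the kinase that imatinib blocks. Nucleofection delivered 500 pmol of a synthetic RNA, imatinib followed at 1 µM after 4 h, and RNA was taken 24 h later, per the labels. The 3 libraries miR92a 1 to 3 come from cells given a mimic of hsa-miR-92a-1-5p, and the 3 libraries scramble 1 to 3 from cells given a negative-control mimic. All 6 thus carry transfected RNA and imatinib, and cells with neither were not analysed here, so the comparison asks what the miR-92a-1-5p mimic did beyond the control mimic. The line is 1 cell line in culture, and the replicates are labelled biological. The members were given by name, with no measured value in the rule, but were chosen with earlier results of these data known.

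Cells detect foreign double-stranded RNA with cytosolic helicases of the RIG-I family and with endosomal TLR3. The helicases signal through MAVS on the mitochondrial surface to the kinases TBK1 and IKBKE, which activate the transcription factors IRF3 and IRF7 and so the interferon genes. Secreted interferon binds receptors coupled to JAK1 and TYK2, and a complex that holds STAT2 and IRF9 then switches on genes whose promoters hold an interferon-stimulated response element. Their products degrade, edit or mask viral RNA, stop translation or block entry and release of virus. K562 cells are known for a homozygous deletion on the short arm of chromosome 9 that removes type I interferon genes together with CDKN2A.

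The RNA that distinguished the groups was the mature strand below, shown because its seed is searched for below (RefSeq, GRCh38.p14, chr13:91351324-91351346, plus strand). Capitals mark the seed, bases 2 to 8 from the 5′ end, with which a microRNA finds its targets.
hsa-miR-92a-1-5p: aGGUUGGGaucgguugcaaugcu
The sequence of the control mimic was not used here.

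The promoters of most matched members hold the element through which interferon acts. RefSeq promoter windows (250 bases before to 50 after a start) were matched for 28 of the 37 members, and 19 of the 28 (67.9%) held the core of that element (GAAA, any 2 bases, GAAA) on either strand, against 4.38% of 27305 genes. DHX58, IRF3, IRF7, OAS2, OASL, IFIT2, USP18, MX2 and IFITM2 were not matched. The members with the core were IFIH1, TLR3, EIF2AK2, OAS3, IFIT1, IFIT3, IFIT5, ISG15, HERC5, MX1, IFITM1, IFITM3, BST2, RSAD2, ISG20, IFI6, IFI27, IFI44 and IFI44L. The interferon-gamma element TTCNNNGAA, which can overlap the core, was found for 9 of the 28 (32.1%), IRF1 among them, against 9.38% of all genes. A match describes the letters and is no evidence of binding in these cells. Below are 30 bases around the core (capitals, in the strand of the gene, GRCh38.p14) for 4 members that were abundant in these libraries or vary below, and for 3 members that were nearly silent.
IFITM1 (chr11:314024-314053): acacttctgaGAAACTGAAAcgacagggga
BST2 (chr19:17405741-17405770): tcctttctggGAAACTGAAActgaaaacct
EIF2AK2 (chr2:37156967-37156996): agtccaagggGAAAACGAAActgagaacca
OAS3 (chr12:112938452-112938481): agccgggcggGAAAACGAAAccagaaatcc
ISG15 (chr1:1013380-1013409): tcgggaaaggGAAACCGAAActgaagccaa
IFIT5 (chr10:89414554-89414583): atttcttaagTTTCAGTTTCtgagcgctcg
IFI44 (chr1:78649761-78649790): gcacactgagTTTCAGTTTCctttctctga
BST2 and IFI44 hold the same core letters on opposite strands, while BST2 was among the most abundant members and IFI44 had 0 counts.

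The labels give an average sequencing coverage of 62 M for the study. Library totals in the table were 0.704 M counts in miR92a 1 and 24.8 to 26 M in the other 5 libraries, so that miR92a 1 was 36-fold shallower than their median. A gene at 3 counts, taken as the lowest level that can be told from 0, stands at 4.08 CPM (a count per 1 M counts of TMM-scaled library size) in miR92a 1 and at 0.115 to 0.125 CPM elsewhere. Of the tested members 21 had under 10 counts in miR92a 1, against 1 in each other library. Deviations from the group mean correlated at 0.42 within the replicate 3 pair, and at 0.15 and 0.16 within pairs 1 and 2. Crossed libraries of replicates 1 and 2 correlated at 0.09 and 0.10, so pairs 1 and 2 were hardly distinct from each other. Values from a blocked fit (replicate number as a term) stand beside the others where a call changes. All 10 erythroid markers were detected, at a summed 9300 to 18400 CPM with the miR-92a-1-5p mimic, against 11800 to 19500 CPM with the control mimic. The labels give the cell type as myeloblast. The 8 listed granulocyte precursor genes summed to 15 to 23.3 CPM with the miR-92a-1-5p mimic, against 23.3 to 26.1 CPM with the control mimic. CD33 held most of that sum, with 15, 18.2 and 14 CPM with the miR-92a-1-5p mimic, against 19.9, 20.7 and 15.8 CPM with the control mimic. AZU1, PRTN3, CEBPA and CEBPE were detected at lower levels and ELANE had 1 count, while the enzyme genes MPO and CTSG had 0 counts in all 6 libraries. The 8 lymphocyte markers (MS4A1 at 0) summed to 7.98 to 9.1 CPM with the miR-92a-1-5p mimic, against 8.12 to 9.17 CPM with the control mimic. The 5 fibroblast or epithelial markers summed to 235 to 298 CPM with the miR-92a-1-5p mimic, against 226 to 292 CPM with the control mimic. The epithelial genes EPCAM and KRT19 held nearly all of that sum. The fibroblast gene COL1A1 averaged 0.615 CPM with the miR-92a-1-5p mimic, against 2.83 CPM with the control mimic (adjusted p = 0.11 by edgeR, 0.006 with the block). COL1A2 and DCN averaged at most 0.959 CPM in either group. The 7 monocyte or plasmacytoid dendritic markers, held mainly by TCF4 and LYZ, summed to 113 to 117 CPM with the miR-92a-1-5p mimic, against 144 to 160 CPM with the control mimic, and their part in the results below was not tested. Whether a lower level comes from all cells or from fewer expressing cells cannot be told apart in bulk RNA.

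The miR-92a-1-5p mimic did not raise the interferon programme detectably beyond the control mimic. Of the 37 members 31 had enough counts to be tested, and 0 were higher and 0 lower by edgeR's quasi-likelihood test over all 14543 tested genes (Benjamini-Hochberg adjusted p under 0.05, 3 libraries per group). Among all tested genes 0.433% were called higher and 0.976% lower. DESeq2 and limma-voom also called 0 members in either direction. At an unadjusted p under 0.05 edgeR had 1 member, MAVS, on the lower side and 0 on the higher side, where 13.5% of all tested genes had such a p. With the replicate block MAVS fell and 0 members rose, against 6.7% of all genes called lower and 4.57% called higher in that fit. The median log2 fold change (miR-92a-1-5p mimic over control mimic) of the 31 tested members was -0.08, beside -0.01 over all tested genes, with 13 members above and 18 below 0.

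**Figure D1:**
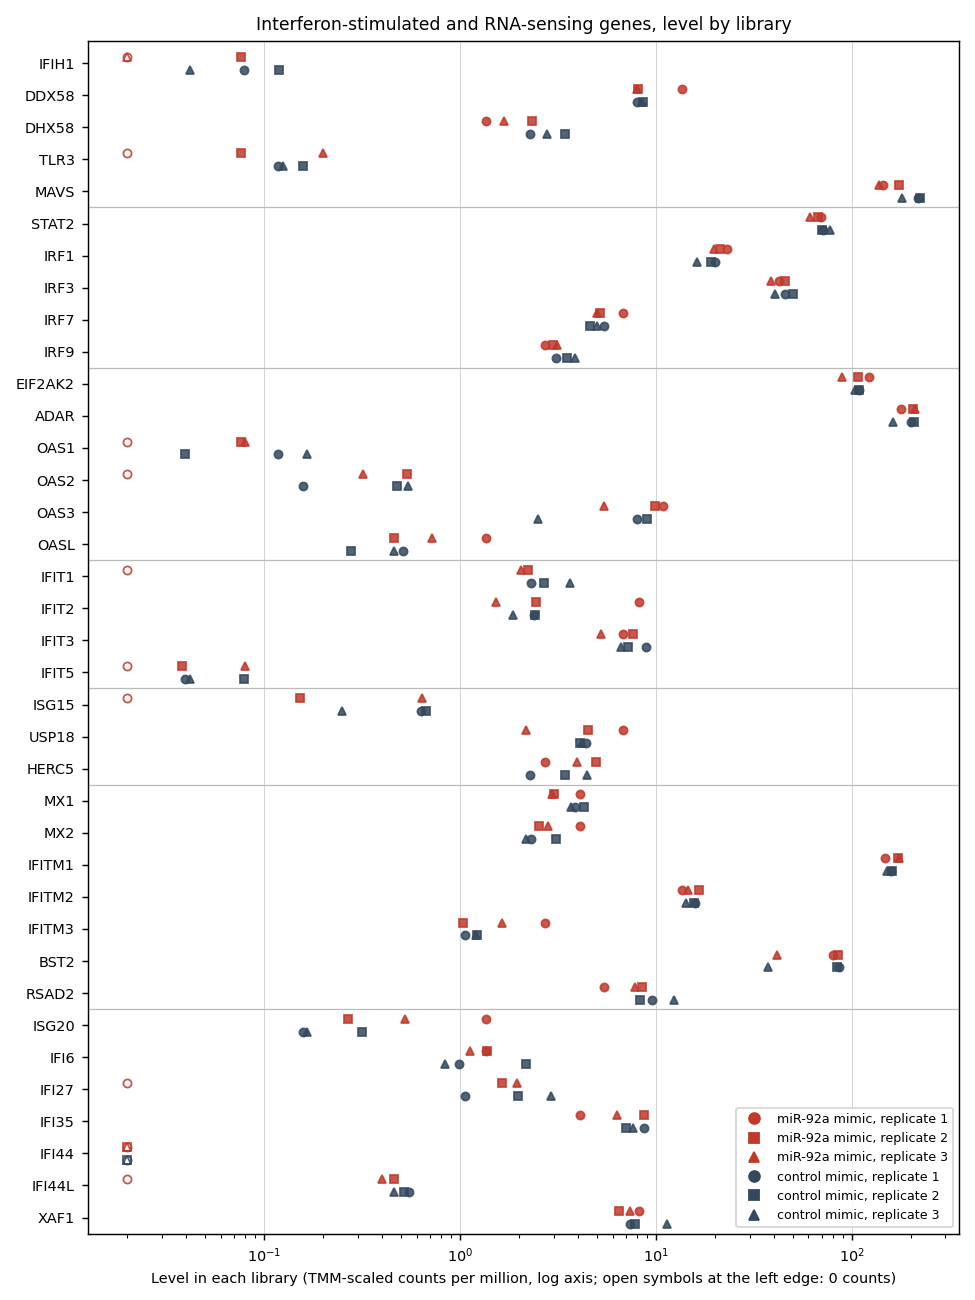
Level of each of the 37 genes in every library, in TMM-scaled CPM on a log axis, with rows separated by role; red symbols are the miR-92a mimic, dark symbols the control mimic, and open symbols at the left edge stand for 0 counts. The groups overlap for nearly all genes, MAVS is lower with the miR-92a mimic, and the scatter of the shallow replicate 1 of the mimic (red circles) is widest among genes under 10 CPM.

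How large a rise could have been missed differed between members. The 95% interval of the fold change ended below 2-fold for 24 of the 31 tested members, and below 1.5-fold for 17. Over all tested genes 85.5% of intervals ended below 2-fold. The 7 members whose interval reached past 2-fold were OAS2, OAS3, OASL, IFIT2, ISG15, HERC5 and IFITM3, with upper ends between 1.08 and 1.69 on the log2 scale. For these genes a 2-fold rise was within what the data allow.

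**Figure D2:**
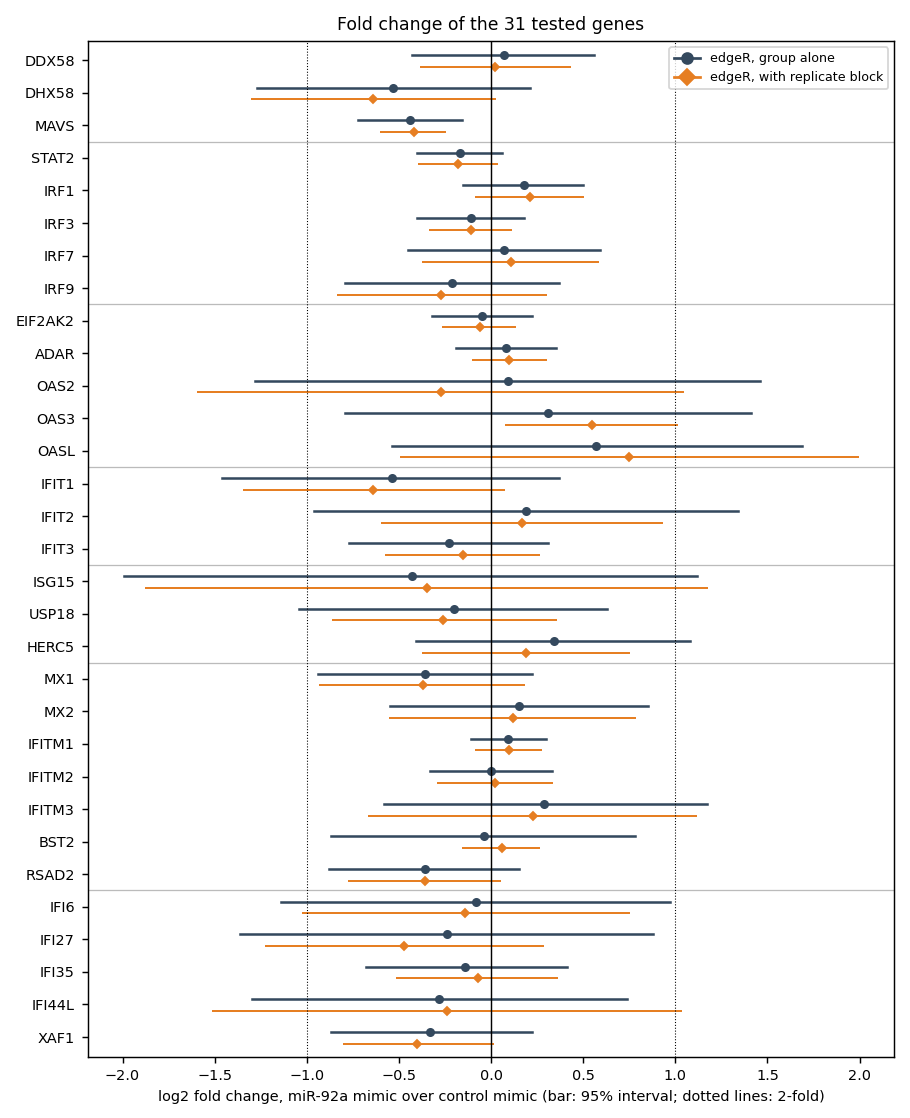
Log2 fold change of each tested member (miR-92a mimic over control mimic) with its 95% interval, from the fit on group alone (dark circles) and the fit with a replicate block (orange diamonds); dotted lines mark 2-fold. All intervals cross 0 except those of MAVS in both fits and of OAS3 in the blocked fit, and OAS3 did not pass after adjustment (0.13).

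Among the sensors, DDX58 (chr9:32455705-32526324, minus strand), the gene for the helicase RIG-I, was the best measured. DDX58 had 13.6, 8.13 and 7.98 CPM with the miR-92a-1-5p mimic, against 7.96, 8.61 and 8.52 CPM with the control mimic. Apart from miR92a 1, where 13.6 CPM rests on 10 counts, the libraries were within 1 CPM of each other. The log2 fold change was 0.07 ± 0.22 (SE), with an interval from a fold of 0.741 to 1.48 (adjusted p = 0.95 by edgeR). DHX58, which encodes the RIG-I family regulator LGP2, had 1.36, 2.33 and 1.68 CPM with the miR-92a-1-5p mimic, against 2.28, 3.44 and 2.79 CPM with the control mimic, a log2 fold change of -0.53 ± 0.32 (adjusted p = 0.55). IFIH1, the gene for the long-RNA sensor MDA5, had 0, 2 and 0 counts with the miR-92a-1-5p mimic, against 2, 3 and 1 with the control mimic. TLR3 had 0, 2 and 5 counts with the miR-92a-1-5p mimic, against 3, 4 and 3 with the control mimic. Both were too low to test, so in all 6 libraries transcripts of RIG-I were measured while those of MDA5 and TLR3 were at or near the limit of detection.

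MAVS, the adaptor through which RIG-I and MDA5 signal (chr20:3846799-3876123, plus strand), was the member with the clearest difference, and it was lower. MAVS had 144, 173 and 138 CPM with the miR-92a-1-5p mimic, against 218, 222 and 180 CPM with the control mimic. The groups did not overlap, and in each replicate pair the mimic library was lower, by log2 differences of -0.60, -0.36 and -0.38. The mean was 152 ± 18.3 CPM with the miR-92a-1-5p mimic, against 207 ± 23.2 CPM with the control mimic (SD, n = 3 each). The log2 fold change was -0.44 ± 0.12 (SE), with an adjusted p of 0.16 without the block and of 0.002 with it (-0.42 ± 0.08, edgeR). With the block and without the shallow replicate 1 pair the value was -0.37 ± 0.10 and still passed (adjusted p = 0.036). Over all 16 alternative fits the adjusted p of MAVS ran between 1.8e-06 and 0.5, under the threshold in the 4 blocked fits alone. The annotated 3′ UTR of MAVS holds 2 seed matches of 7 bases, at chr20:3867098-3867104 and chr20:3867186-3867192 (GENCODE v29, GRCh38). They are shown with 11 flanking bases on each side, the seed match in capitals.
MAVS, first match: tctctctcctgCCCAACCtggtagagctg
MAVS, second match: taggcctgcgtCCCAACCtgcctctcacc
Searching the longest annotated 3′ UTR for CCCAACC or CCAACCA, 6 of the 31 tested members (19.4%) and 16.9% of 12874 tested genes held at least 1. The other 5 members were EIF2AK2, OAS2, IFIT1, IFIT3 and IFI44L, none of which passed in either fit. EIF2AK2 and IFIT1 each held 1 match of 8 bases (CCCAACCA), which MAVS lacked. The searched 3′ UTR of MAVS has 9976 bases, against a median of 1329 over all tested genes, and a longer sequence holds more matches by length alone. Which 3′ UTR isoforms K562 cells use was not measured.

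None of the 5 transcription factor genes passed in either fit. STAT2, which carries the type I interferon signal to the nucleus with IRF9, had 69.4, 66.9 and 60.8 CPM with the miR-92a-1-5p mimic, against 71.4, 70.3 and 77.5 CPM with the control mimic. The groups did not overlap, but the gap was small (log2 fold change -0.17 ± 0.10, interval -0.40 to 0.06, adjusted p = 0.53 by edgeR). Values of STAT2, MAVS and IFIT1 were lower in all 3 mimic libraries than in any control library, where 11.5% of all tested genes showed that pattern. No member was higher in all 3, a pattern of 9.73% of all genes. IRF3, the factor activated directly by RNA sensing, had 42.2, 45.5 and 38.5 CPM with the miR-92a-1-5p mimic, against 45.5, 50.3 and 40.5 CPM with the control mimic, a log2 fold change of -0.11 ± 0.13. IRF1, a target of interferon-gamma, had 23.1, 21.1 and 19.7 CPM with the miR-92a-1-5p mimic, against 19.9, 19.1 and 16.2 CPM with the control mimic. IRF1, IRF7 and IRF9 had log2 fold changes of 0.18, 0.07 and -0.21 with adjusted p of 0.68 to 0.97. IRF3 and IRF1 overlap exons of genes on the opposite strand, and since the library strand is not given in the sources used here, such reads cannot be told apart.

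The enzymes that bind or edit double-stranded RNA split into 2 abundant genes and a low OAS family. ADAR, which edits adenosine to inosine in double-stranded RNA, had 177, 205 and 211 CPM with the miR-92a-1-5p mimic, against 200, 207 and 162 CPM with the control mimic. EIF2AK2, the gene for the kinase PKR that halts translation, had 122, 107 and 88.9 CPM with the miR-92a-1-5p mimic, against 109, 109 and 104 CPM with the control mimic. Both ranges overlap, and the log2 fold changes were 0.08 ± 0.12 and -0.05 ± 0.12, with upper interval ends of 0.35 and 0.22. OAS3, the largest of the oligoadenylate synthetases that activate RNase L, had 10.9, 9.85 and 5.41 CPM with the miR-92a-1-5p mimic, against 8, 8.97 and 2.49 CPM with the control mimic. In both groups its replicate 3 was the lowest, and within each pair the mimic library was higher, by log2 differences of 0.42, 0.13 and 0.98. The blocked log2 fold change of 0.55 ± 0.22 had an unadjusted p of 0.023 and did not pass after adjustment (0.13), nor did the unblocked 0.31 ± 0.48 (0.85, edgeR). OAS1 had at most 4 counts in any library. OAS2 had 0, 14 and 8 counts with the miR-92a-1-5p mimic, against 4, 12 and 13 with the control mimic, and OASL had 1, 12 and 18 counts with the miR-92a-1-5p mimic, against 13, 7 and 11 with the control mimic. These 3 genes give little information.

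Of the IFIT genes, whose products bind foreign RNA ends, IFIT3 was the best measured. IFIT3 had 6.8, 7.6 and 5.25 CPM with the miR-92a-1-5p mimic, against 8.91, 7.23 and 6.61 CPM with the control mimic (log2 fold change -0.23 ± 0.24, adjusted p = 0.76 by edgeR). IFIT2 had 8.16, 2.44 and 1.52 CPM with the miR-92a-1-5p mimic, against 2.39, 2.41 and 1.87 CPM with the control mimic. The high value of IFIT2 in miR92a 1 rests on 6 counts, and its log2 fold change was 0.19 ± 0.50 with that library and -0.16 ± 0.32 without it. IFIT1 had 0, 58 and 51 counts with the miR-92a-1-5p mimic, against 59, 68 and 87 with the control mimic, with a log2 fold change of -0.54 ± 0.40 (adjusted p = 0.64). The 0 in miR92a 1 allows up to 4.08 CPM, above the 2.31 to 3.62 CPM of the control libraries, so for IFIT1 that library cannot be told from them. IFIT5 had at most 2 counts.

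The ISG15 system tags proteins during the interferon response, and its central gene was nearly silent. ISG15, the ubiquitin-like tag itself, had 0, 4 and 16 counts with the miR-92a-1-5p mimic, against 16, 17 and 6 with the control mimic. With so few counts its fold change had an interval of 0.252 to 2.18 (adjusted p = 0.86 by edgeR). USP18, which removes ISG15 and restrains the interferon receptor, had 6.8, 4.47 and 2.16 CPM with the miR-92a-1-5p mimic, against 4.39, 4.07 and 4.2 CPM with the control mimic. Its log2 fold change of -0.20 ± 0.37 turned to 0.22 ± 0.31 without miR92a 3, with adjusted p of 0.88 in both fits. HERC5, the ligase that attaches ISG15, had 2.72, 4.96 and 3.97 CPM with the miR-92a-1-5p mimic, against 2.28, 3.44 and 4.45 CPM with the control mimic (0.34 ± 0.33, adjusted p = 0.74).

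Genes that restrict entry or release of virus included the most abundant members. IFITM1, which hinders membrane fusion, had 148, 172 and 173 CPM with the miR-92a-1-5p mimic, against 158, 160 and 151 CPM with the control mimic. The log2 fold change was 0.09 ± 0.09, with an interval from a fold of 0.925 to 1.23. IFITM1 and IFITM2 share exons in the annotation, and summing the counts of IFITM1, IFITM2 and IFITM3 gave 0.09 ± 0.09 again (adjusted p = 0.76). IFITM2 had 13.6, 16.5 and 14.5 CPM with the miR-92a-1-5p mimic, against 15.8, 15.6 and 14.2 CPM with the control mimic. IFITM3 stayed between 1.03 and 2.72 CPM in all 6 libraries, so of the 3 paralogs IFITM1 held most counts. BST2, the gene for tetherin that holds budding virus at the cell surface, had 80.3, 85.2 and 41.6 CPM with the miR-92a-1-5p mimic, against 85.5, 83.5 and 37.2 CPM with the control mimic. BST2 thus differed between replicates and hardly between groups, and the blocked log2 fold change was 0.06 ± 0.10 (interval -0.15 to 0.26). MX1 and MX2, GTPases that trap viral particles, had log2 fold changes of -0.36 ± 0.25 and 0.15 ± 0.31 at 2 to 5 CPM. RSAD2, the gene for viperin, had 5.44, 8.51 and 7.78 CPM with the miR-92a-1-5p mimic, against 9.53, 8.26 and 12.4 CPM with the control mimic (-0.36 ± 0.23, adjusted p = 0.56).

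The remaining interferon-induced genes were low, and all 5 that could be tested had fold changes on the negative side, between -0.33 and -0.08 on the log2 scale. XAF1, a pro-apoptotic gene, had 8.16, 6.45 and 7.34 CPM with the miR-92a-1-5p mimic, against 7.34, 7.78 and 11.4 CPM with the control mimic. IFI35 had 4.08, 8.67 and 6.33 CPM with the miR-92a-1-5p mimic, against 8.71, 7.03 and 7.65 CPM with the control mimic. Both groups overlap for XAF1 and IFI35, and neither passed (adjusted p = 0.64 and 0.88 by edgeR). IFI6 lay between 0.832 and 2.17 CPM in all 6 libraries and IFI27 had 0, 43 and 49 counts with the miR-92a-1-5p mimic, against 27, 50 and 70 with the control mimic. IFI44L, a sensitive interferon marker in blood, had 0, 12 and 10 counts with the miR-92a-1-5p mimic, against 14, 13 and 11 with the control mimic. IFI44 had 0 counts in all 6 libraries, which allows at most 0.115 to 0.125 CPM in the 5 deep ones. ISG20, an exonuclease gene, had 1, 7 and 13 counts with the miR-92a-1-5p mimic, against 4, 8 and 4 with the control mimic, and was too low to test.

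Levels of different genes can be compared only per length, here as CPM per kilobase of the longest annotated coding transcript and averaged over all 6 libraries. On that scale IFITM1 led with 187, followed by BST2 with 67.6, ADAR with 29 and IRF3 with 25.2. STAT2 (21.3), IFITM2 (16.8), MAVS (15.3) and EIF2AK2 (10.7) came next, and all other members were at 5.71 or less. The per-kilobase level of ADAR was 29.6 ± 2.72 with the miR-92a-1-5p mimic, against 28.4 ± 3.58 with the control mimic, and that of IRF3 was 24.2 ± 1.99 with the miR-92a-1-5p mimic, against 26.1 ± 2.81 with the control mimic (SD, n = 3 libraries each). The SD ranges of ADAR and IRF3, neighbours in this order, overlapped with the control mimic but not with the miR-92a-1-5p mimic. The longest coding transcripts of MAVS and EIF2AK2 have 11714 and 10042 bases, so shorter isoforms would place both higher. The upper part of this order thus held both upstream components (IRF3, STAT2, MAVS) and interferon-induced effectors (IFITM1, BST2), while IFIT1, ISG15, OAS1, OAS2, IFIH1 and IFI44 all lay below 0.5.

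Interferon transcripts were at or near 0 with either mimic. Of 16 interferon genes listed on the short arm of chromosome 9, IFNB1, IFNE and 12 of the IFNA genes had 0 counts in all 6 libraries. IFNW1 had 3 counts in miR92a 2 and 2 in scramble 2, and IFNA16 had 1 count in miR92a 3. Their neighbours CDKN2A, CDKN2B and DMRTA1 also had 0 counts throughout, whereas MTAP had 0, 58 and 41 counts with the miR-92a-1-5p mimic, against 51, 48 and 62 with the control mimic, and KLHL9 had 0, 24 and 14 counts with the miR-92a-1-5p mimic, against 24, 8 and 25 with the control mimic (adjusted p = 0.85 and 0.97 by edgeR). A separate list held further interferon and chemokine ligands. There IFNL1, IFNG and IFNK had 1, 1 and 2 counts in all, and IFNL2, IFNL3, CXCL9 and CXCL10 had 0. CXCL10, a chemokine gene that responds to interferon within hours in many cell types, was thus silent with either mimic. TNFSF10, the gene for the death ligand TRAIL, was the only ligand of that list to be tested and had 2.72, 2.21 and 1.6 CPM with the miR-92a-1-5p mimic, against 2.86, 3.87 and 2.79 CPM with the control mimic (log2 fold change -0.69 ± 0.32, adjusted p = 0.40).

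Genes of the pathway outside the 37 members were taken from 6 lists of 132 genes, of which 86 were tested. The lists were chosen with earlier results of these data known, so the shares that passed are descriptive and no independent test. Of these, 3 were lower (3.49%) and 1 higher (1.16%), where 0.976% of all tested genes were lower and 0.433% higher. With the replicate block 11 were lower (12.8%) and 3 higher (3.49%), where 6.7% of all tested genes were lower and 4.57% higher. Of the 14 genes called with the block, 5 (JAK1, IKBKE, CMPK2, CNP and WARS) also passed in each of the 3 blocked fits that left out a replicate pair. The lists had a median log2 fold change of -0.13, with 63 of 86 genes below 0 where 51.7% of all tested genes were. The genes that passed were signalling components and a few interferon-related genes, most of them on the lower side.

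Receptor and kinase genes moved in both directions, and the receptor genes IFNAR1, IL10RB and IFNGR2 lie within chr21:33266358-33479348. JAK1, the kinase shared by all interferon receptors, had 58.5, 69.5 and 57.3 CPM with the miR-92a-1-5p mimic, against 123, 123 and 104 CPM with the control mimic. The groups were far apart, and JAK1 fell by 0.90 ± 0.12 on the log2 scale (adjusted p = 0.0097 by edgeR). Its call was lost without miR92a 1, scramble 1 or scramble 2, at adjusted p of 0.067, 0.054 and 0.055 and values of -0.88, -0.86 and -0.86, and over all 16 alternatives its adjusted p ran between 1.9e-20 and 0.067. IFNAR1, a chain of the type I interferon receptor, had 76.2, 74.5 and 61.4 CPM with the miR-92a-1-5p mimic, against 97.2, 86.3 and 91.1 CPM with the control mimic. It passed with the block alone (-0.38 ± 0.10, adjusted p = 0.013, against 0.17 without it). That call was lost without the replicate 1 pair (-0.38, adjusted p = 0.055) and without the replicate 3 pair (-0.24, adjusted p = 0.065). In contrast IFNGR2, a chain of the interferon-gamma receptor, had 59.9, 59.3 and 50.2 CPM with the miR-92a-1-5p mimic, against 47.1, 41.9 and 33.5 CPM with the control mimic. IFNGR2 rose with the block (0.51 ± 0.11, adjusted p = 0.0032, against 0.24 without it). The other chain, IFNGR1, was lower, with 28.6, 27.3 and 31 CPM with the miR-92a-1-5p mimic, against 39.6, 31.6 and 41.7 CPM with the control mimic. IFNGR1 passed in neither fit (-0.37 ± 0.14, adjusted p = 0.31 by edgeR, 0.078 with the block). IFNAR2, the other type I receptor chain, had a log2 fold change of -0.06 ± 0.20 (adjusted p = 0.95 by edgeR). IL10RB, a chain shared by the interleukin-10 and interferon-lambda receptors, had 42.2, 36.5 and 28.9 CPM with the miR-92a-1-5p mimic, against 26.4, 24.8 and 20.2 CPM with the control mimic, and also rose with the block (0.56 ± 0.13, adjusted p = 0.0055, against 0.22 without it). Without the replicate 2 pair the blocked calls of both IFNGR2 and IL10RB were lost (0.50 and 0.56, adjusted p = 0.077 and 0.075). TYK2, the partner kinase of JAK1, and the feedback inhibitor SOCS3 fell with the block as well (-0.29 ± 0.08 and -1.06 ± 0.33, adjusted p = 0.029 and 0.042). SOCS3 had 4.08, 1.53 and 1.44 CPM with the miR-92a-1-5p mimic, against 3.53, 3.99 and 2.87 CPM with the control mimic. Its value in miR92a 1 rests on 3 counts and lies above all control libraries, so the groups overlap. The blocked call of TYK2 was lost without pair 1 (adjusted p = 0.14) or 2 (0.22), and that of SOCS3 without pair 2 (-0.70, 0.70) or 3 (0.23). TYK2, SOCS3, IFNGR1 and IFNAR2 were named after their values were seen.

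In the sensing cascade IKBKE, an interferon-inducible kinase downstream of MAVS, had 4.08, 5.46 and 4.57 CPM with the miR-92a-1-5p mimic, against 9.53, 9.88 and 9.27 CPM with the control mimic. All 3 mimic libraries lay below all control libraries, though miR92a 1 contributes only 3 counts. The log2 fold change was -0.96 ± 0.20, with an adjusted p of 0.063 without the block and 0.0025 with it (edgeR). IKBKE was the only one of the 18 tested genes of that list to pass, with the block alone. That share, 5.56%, was below the 6.7% of all tested genes called lower with the block. Its sister kinase TBK1, named after its values were seen, averaged 52.2 ± 7.44 CPM with the miR-92a-1-5p mimic, against 55.8 ± 3.97 CPM with the control mimic (adjusted p = 0.73).

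Among 35 further interferon-stimulated genes that were tested, edgeR called 2 lower (5.71%) and 0 higher, beside 0.976% and 0.433% of all tested genes. With the block 6 were lower (17.1%) and 0 higher, beside 6.7% and 4.57% of all tested genes. At an unadjusted p under 0.05 edgeR had 7 lower and 0 higher without the block. Among all tested genes 13.5% had such a p in either direction in that fit. With the block 9 were lower and 1 higher at that unadjusted p. The matching share of all tested genes was not computed for the blocked fit, so these counts are descriptive. CMPK2, a mitochondrial nucleotide kinase that neighbours RSAD2 and is co-induced with it by interferon, had 16.3, 16.7 and 12.5 CPM with the miR-92a-1-5p mimic, against 33.8, 35 and 37.7 CPM with the control mimic. CMPK2 (chr2:6840570-6866635, minus strand) fell by 1.26 ± 0.15 on the log2 scale (adjusted p = 0.0066 by edgeR) and passed in all 16 alternative fits run for it, with adjusted p up to 0.043. RSAD2 on the opposite strand overlaps an exon of CMPK2 in the annotation, so a share of their reads cannot be told apart. CNP, a cyclic nucleotide phosphodiesterase with antiviral activity, had 31.3, 45.8 and 49.8 CPM with the miR-92a-1-5p mimic, against 74.5, 73.4 and 73.8 CPM with the control mimic. CNP fell by 0.71 ± 0.13 (adjusted p = 0.045), a call that was lost without any single library (adjusted p 0.05 to 0.18) and kept with the block (2.1e-04). TRAFD1, a brake on innate signalling, had 81.6, 92.4 and 81 CPM with the miR-92a-1-5p mimic, against 119, 113 and 102 CPM with the control mimic. PARP14, an ADP-ribosyltransferase gene, had 8.16, 14.9 and 16.1 CPM with the miR-92a-1-5p mimic, against 25.1, 22.5 and 18.5 CPM with the control mimic. Neither pair of groups overlaps, and both genes fell with the block alone (-0.35 ± 0.09 and -0.52 ± 0.16, adjusted p = 0.013 and 0.047). The TRAFD1 call was lost without pair 1 (adjusted p = 0.087) or 2 (0.098), and the PARP14 call without pair 1 (-0.39, 0.12) or 2 (0.26). LGALS3BP and LGALS9, named after their values were seen, completed the 6 (adjusted p = 0.041 and 0.034 with the block). The LGALS3BP call was lost without any one pair (0.07, 0.24 and 0.058 without pair 1, 2 and 3), and the LGALS9 call without pair 1 (0.059) or 2 (0.31).

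Of the 11 pathway genes that fell in either fit only CNP and SOCS3 held such a 7-base seed match in an annotated 3′ UTR, and JAK1, CMPK2, IKBKE, IFNAR1 and TYK2 held none. The share, 18.2%, was near the 16.9% of all tested genes. The CNP match lies at chr17:41975122-41975128 (plus strand, GENCODE v29, GRCh38).
CNP: tcctggctttgCCCAACCtcagcaacctg

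Of 18 tested interferon-gamma and antigen presentation genes 1 rose, a share of 5.56% in either fit. Among all tested genes 0.433% were called higher without the block and 4.57% with it. WARS, the tryptophanyl-tRNA synthetase gene, which interferon-gamma induces but which is also a target of amino acid stress signalling, had 121, 117 and 109 CPM with the miR-92a-1-5p mimic, against 78.4, 82.5 and 66.3 CPM with the control mimic. The groups did not overlap, and WARS rose by 0.60 ± 0.11 on the log2 scale (adjusted p = 0.042 by edgeR, 1e-04 with the block). The call was lost without any single library (adjusted p 0.05 to 0.16) and with total-count scaling (0.061). JAK1, IFNGR2, IKBKE, CNP and WARS overlap exons of genes on the opposite strand in the annotation, and such reads cannot be told apart here.

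**Figure D3:**
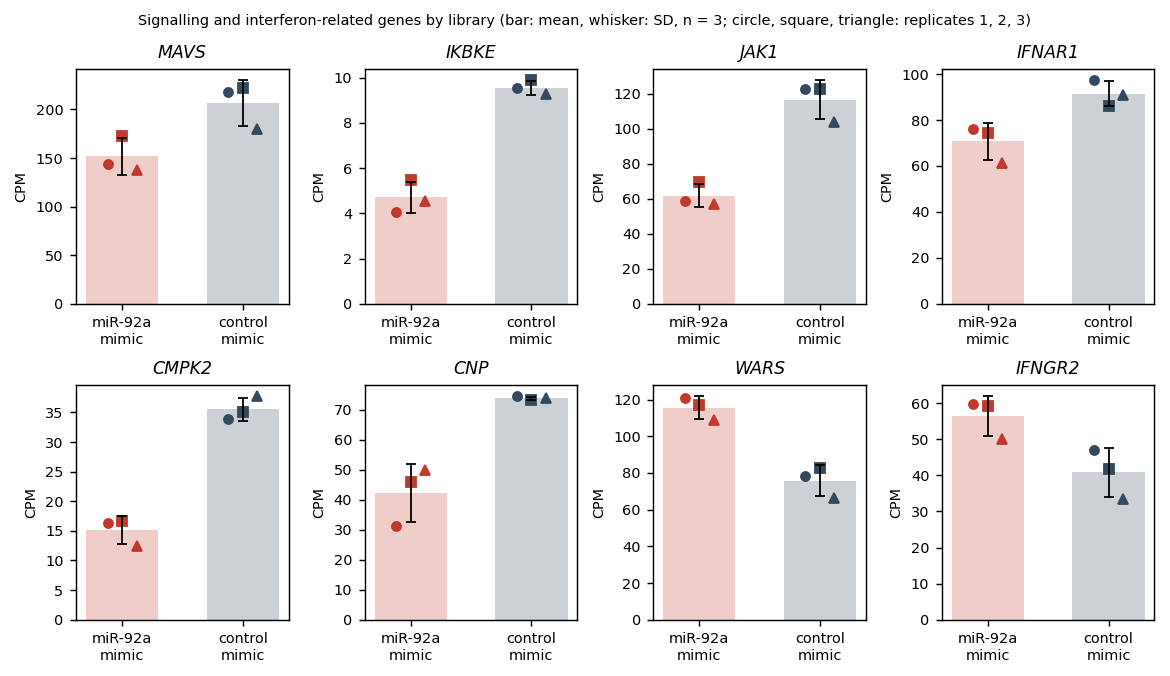
Level of 8 genes by library in CPM, with the miR-92a mimic left of the control mimic; bars are means, whiskers the SD of 3 libraries, and circles, squares and triangles replicates 1, 2 and 3. MAVS, IKBKE, JAK1, IFNAR1, CMPK2 and CNP are lower and WARS and IFNGR2 higher in all 3 mimic libraries than in any control library.

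Some members differed more between replicates than between groups. In replicate 3 BST2 was lower than in replicates 1 and 2 by a log2(CPM + 0.5) difference of -0.98 with the miR-92a-1-5p mimic, against -1.17 with the control mimic. For OAS3 the difference was -0.88 with the miR-92a-1-5p mimic, against -1.58 with the control mimic. USP18 was lower in replicate 3 of the miR-92a-1-5p mimic alone, by -1.18, against -0.01 with the control mimic. XAF1 differed by 0.01 with the miR-92a-1-5p mimic, against 0.56 with the control mimic, and RSAD2 by 0.18 with the miR-92a-1-5p mimic, against 0.46 with the control mimic. Smaller shifts in the same direction in both groups were seen for IFIT3 (-0.42 with the miR-92a-1-5p mimic, against -0.26 with the control mimic) and MAVS (-0.19 with the miR-92a-1-5p mimic, against -0.29 with the control mimic). What set replicate 3 apart is not given in the labels.

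**Figure D4:**
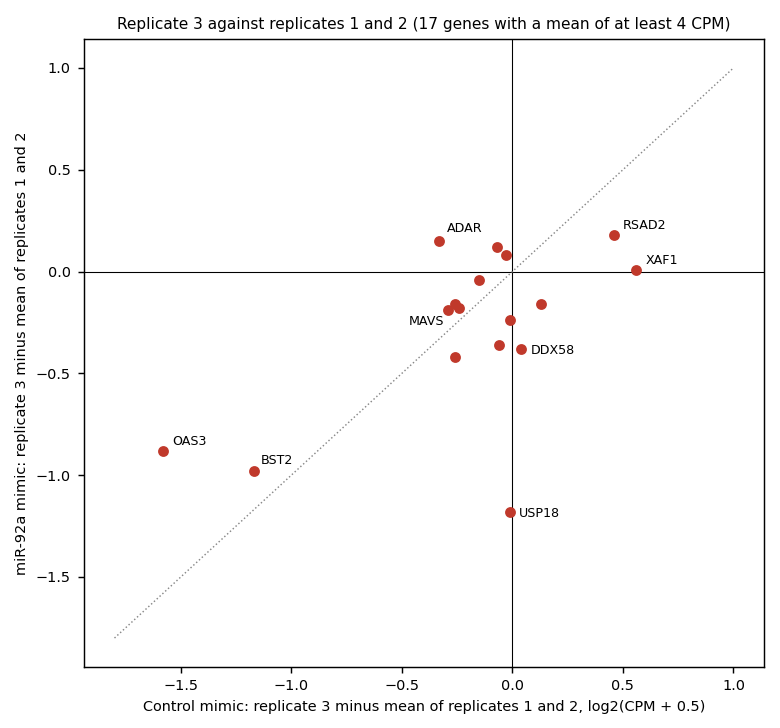
Difference between replicate 3 and the mean of replicates 1 and 2 on the log2(CPM + 0.5) scale, control mimic on the horizontal axis and miR-92a mimic on the vertical axis, for the 17 tested members with a mean of at least 4 CPM; the dotted line marks equal differences. BST2 and OAS3 lie far down in both groups, and USP18 only in the mimic group.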

How the data were processed

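Gene expression was measured in 6 K562 libraries, and groups and replicate numbers were taken from the sample titles. The authors quantified reads with kallisto, per the labels, and deposited expected counts (estimated counts) for each symbol, stored as whole numbers with unequal library sums. The submitters' processing notes name GRCh38, while the kallisto version, the annotation and the strand are not given in the sources used here. Estimated counts split reads between near-identical genes and transcripts, which makes paralogs uncertain.

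The main test was edgeR's quasi-likelihood F-test on group alone (edgeR 4.0.16 under R 4.3.3), after filterByExpr had kept 14543 genes and TMM had set the library sizes. P-values were adjusted by Benjamini-Hochberg over all tested genes, with a threshold of 0.05. Standard errors are the fold change divided by the square root of F, and intervals cover 95%. CPM are TMM-scaled, and the median tested gene had 16 counts in miR92a 1 and 556 to 613 counts elsewhere. The code was tested on simulated data.

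The members and lists were chosen with earlier results of these data known. Genes with values in every library are the members that passed in either fit or had an unadjusted p under 0.05, up to 2 members per role with the highest CPM, up to 4 genes per pathway list that passed (in a list with no such gene, the 2 of highest CPM), and every listed gene of the chromosome 9 locus with any count. Further members are described because all 37 are accounted for. The replicates are labelled biological, but no label says whether a number marks a shared batch or day. As a pairing check, deviations of the tested genes from their group mean were compared: replicates 1, 2 and 3 of the groups correlated at 0.15, 0.16 and 0.42, each above 0.1. Unlike-numbered libraries correlated at -0.33 to 0.10, and over abundant genes miR92a 2 correlated more with scramble 1 (0.52) than with scramble 2 (0.48), so that replicate 3 stood apart more clearly than 1 and 2 from each other. With 3 libraries per group the deviations of each gene cancel out, so the negative values follow in part from the positive ones. Blocked values are printed where a call changes.

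Alternatives were DESeq2 1.42.0, limma-voom (limma 3.58.1), median-of-ratios and total-count scaling, a filter at a mean of 1 CPM or none beyond a summed count of 1, the block, each library left out, and the IFITM genes summed. Blocked fits without each pair were added after the data were seen. Seed matches, promoter cores and transcript lengths used GENCODE v29 and RefSeq tables with Python 3.11.15 and pandas 2.3.3.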

Additional observations from a re-analysis of the deposited data

How the results depend on the processing

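The number of members called higher was 0 in all 16 alternative fits, and the number called lower was 0 in 12 of them and 1 (MAVS) in the 4 with the replicate block. The blocked fits called 1639 genes in all with every library, and 1237, 834 and 1420 without pair 1, 2 and 3, where edgeR without the block called 205 and DESeq2 388. Leaving out each library gave 70 to 201 called genes. Pathway genes called were 4 without the block, 14 with it, 8, 6 and 12 with it and without pair 1, 2 and 3, and 1 to 2 with a library left out. The member median of -0.08 lay between -0.20 and 0.05 with a library left out, and was -0.02 with the block without pair 3. Fold changes near 0 that turned sign were never called: DDX58 (-0.01) and IFIT2 (-0.03) with limma-voom, BST2 with the block (0.06), and with a library left out DDX58 (-0.05) and IFIT2 (-0.16) without miR92a 1, ADAR (-0.02) without scramble 3, EIF2AK2 (0.07) and USP18 (0.22) without miR92a 3, and BST2 without miR92a 3 (0.28), scramble 1 (0.15) or scramble 2 (0.13). With a library left out ADAR lay between -0.02 and 0.14, EIF2AK2 between -0.13 and 0.07, IFIT2 between -0.16 and 0.64, USP18 between -0.57 and 0.22, and BST2 between -0.37 and 0.28. The cause was not tested. The depth of miR92a 1 limits members under about 4 CPM, and 3 libraries per group limit the rest.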

Other observations

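Antigen presentation genes, which interferon raises in most cell types, ranged widely in level, and none of those tested passed in either direction. These genes were named after their values were seen. B2M, the shared light chain of class I molecules, averaged 310 ± 68.2 CPM with the miR-92a-1-5p mimic, against 327 ± 50.1 CPM with the control mimic (SD, n = 3 libraries each). HLA-C averaged 23.4 ± 8.6 CPM with the miR-92a-1-5p mimic, against 23.4 ± 12.4 CPM with the control mimic. HLA genes are near-identical in parts and their estimated counts are uncertain.

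Of the DNA-sensing genes on the pathway lists, TMEM173, the gene for STING, averaged 32.8 ± 13.6 CPM with the miR-92a-1-5p mimic, against 35.8 ± 7.52 CPM with the control mimic. MB21D1, the gene for the sensor cGAS upstream of it, averaged 0.324 ± 0.307 CPM with the miR-92a-1-5p mimic, against 0.601 ± 0.235 CPM with the control mimic. TLR7, an endosomal sensor of single-stranded RNA, had 0, 6 and 3 counts with the miR-92a-1-5p mimic, against 4, 3 and 7 with the control mimic, too low to test. TMEM173, MB21D1 and TLR7 were named after their values were seen.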
